A study of Homo sapiens with 12 samples.

Results

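Cells make cholesterol and fatty acids from the same precursor, acetyl-CoA, and this report gives the RNA levels of 36 genes of these pathways in 3 prostate cell lines. The genes were taken by name from the deposited expression table, in which all 36 were found among 58302 genes. They comprise 5 regulators, 7 enzymes of the mevalonate steps, 11 enzymes of the squalene and sterol steps, 1 sterol carrier, 5 enzymes that supply acetyl-CoA and build the fatty acid chain, and 7 elongases and desaturases. The rule used names and no measured value, though earlier results of these data were known when the genes were chosen.

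The study sequenced RNA of a benign and of malignant prostate lines to find genes that differ between them. BPH-1 is an immortalised epithelial line from a benign prostate, PC3 is a prostate cancer line from a bone metastasis, and DU145 is a prostate cancer line from a brain metastasis. Each line was labelled wild type (WT) and gave 4 libraries, and no treatment was named. All were grown in DMEM (Dulbecco's medium) with 10% fetal bovine serum, a source of lipoprotein cholesterol, and with penicillin and streptomycin. The labels do not say whether replicates were separate cultures, so p-values measure the spread between these libraries. Each line stands for 1 donor, and its malignancy, donor and culture history cannot be told apart. In bulk libraries, fewer cells of a kind and less RNA per cell cannot be told apart either.

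In the mevalonate pathway, acetyl-CoA units are joined to hydroxymethylglutaryl-CoA, reduced to mevalonate, built up to squalene, and cyclised and trimmed to cholesterol. The transcription factors SREBF1 and SREBF2 control both pathways. SCAP escorts them from the endoplasmic reticulum when sterols are low, and INSIG1 and INSIG2 hold them there when sterols are high. Prostate cancers are known for active fatty acid synthesis, with FASN as the best studied enzyme.

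Libraries held between 12950665 and 16309559 reads, as recovered from the steps of the deposited values. The values are FPKM, in which reads are divided by gene length and library depth. The length that reproduced whole reads sums all distinct annotated exons, so overlapping exons of several transcripts count repeatedly. Genes with many such exons thus come out low, and levels of different genes compare only roughly. The epithelial keratins KRT8 and KRT18 were present in every library (14.7 to 99.2 FPKM), and the marker genes of liver and adipose tissue were at 0.275 FPKM or below in sum. The basal markers KRT5, KRT14 and TP63 summed to 298 to 427 FPKM in BPH-1, against 0 to 0.994 in DU145 and 0 to 0.0645 in PC3. The epithelial markers EPCAM and CDH1 were near absent in DU145, at 0.166 to 0.573 and 0.0851 to 0.297 FPKM, and PC3 held 0.427 to 1.42 FPKM of CDH1. The leukocyte marker PTPRC was at 1.15 to 1.54 FPKM in BPH-1 and at 1.35 and 1.25 in DU145 replicates 1 and 2, and was listed at 0 in the other libraries. Of the other markers, CD68 was at 3.43 to 13.5 FPKM in all libraries, COL1A1 did not exceed 3.84, PECAM1 was at 1.19 to 2.28 in PC3 and at 0.224 or below elsewhere, and CD3E was listed at 0 throughout. Many of these markers differed between the lines, and PTPRC, KRT5 and KRT14 also differed among the DU145 libraries. In DU145 replicates 1 to 4, KRT5 was at 0.342, 0.499, 0.024 and 0 FPKM, and KRT14 at 0.275, 0.442, 0.0222 and 0. The part of the markers in the differences below was not tested.

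Differences were tested with limma on log2(FPKM + 1) over all genes with enough reads, and a gene was called at a Benjamini-Hochberg adjusted p under 0.05. Fold changes are differences of mean log2(FPKM + 1), given with their standard error (SE), and understate the change of low genes. In PC3 against BPH-1, 6 of the 36 genes were higher and 19 lower, 25 in all or 69.4%, while 67.7% of the 16351 genes tested were called. The share called thus lay at the background. Among the calls, 52.8% of the members were lower against 40.5% of all genes, and 16.7% were higher against 27.2%. The median log2 fold change was -0.35 over the members and -0.13 over all genes tested. With upper-quartile scaling of the libraries, which moved the median of all genes from -0.13 to 0.09, the calls were 10 higher and 12 lower. Of all 16351 genes, 6093 were then higher and 5058 lower. Scaling to the same sum of FPKM gave 6 higher and 24 lower members, beside 3430 higher and 7908 lower of all genes. How far lower calls were in excess among the members thus depended on the scaling.

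In DU145 against BPH-1, which uses the same BPH-1 libraries, 6 members were higher and 15 lower, or 58.3% against a background of 62.6%. Lower calls made up 41.7% of the members and 32.3% of the 17074 genes tested, and higher calls 16.7% and 30.3%. The median was -0.34 over the members and -0.03 over all genes. Upper-quartile scaling gave 7 higher and 13 lower members here, beside 6167 higher and 4604 lower of all 17074 genes. The PCa lines were also compared with each other. In PC3 against DU145, 9 of the 35 members tested were higher and 8 lower, 48.6% in all against 48.3% of 16215 genes. With upper-quartile scaling the calls were 10 higher and 5 lower, beside 3452 higher and 3900 lower among all 16215 genes. The lower calls came to 5 without DU145 replicate 1 or without PC3 replicate 1, 2 or 3. They came to 4 with replicates 2 to 4 of each line only, beside 3479 lower of all 16319 genes then tested. Higher calls made up 25.7% of the members and 20% of all genes, and lower calls 22.9% and 28.3%. The median was 0.09 over the members and -0.05 over all genes.

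Libraries of PC3 and BPH-1 did not overlap for 23 of the 36 members (63.9%, background 64.5%). For DU145 and BPH-1 this held for 20 members (55.6%, background 59.4%), and for PC3 and DU145 for 14 of the 35 tested (40.0%, background 46.5%). In PC3 against BPH-1, 12 members (33.3%) passed the test with an absolute log2 fold change over 1, against 27.1% of all genes. In DU145 against BPH-1 the same number passed, against 28.7% of all genes, and in PC3 against DU145 6 members did (17.1%), against 19.5%.

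**Figure D1:**
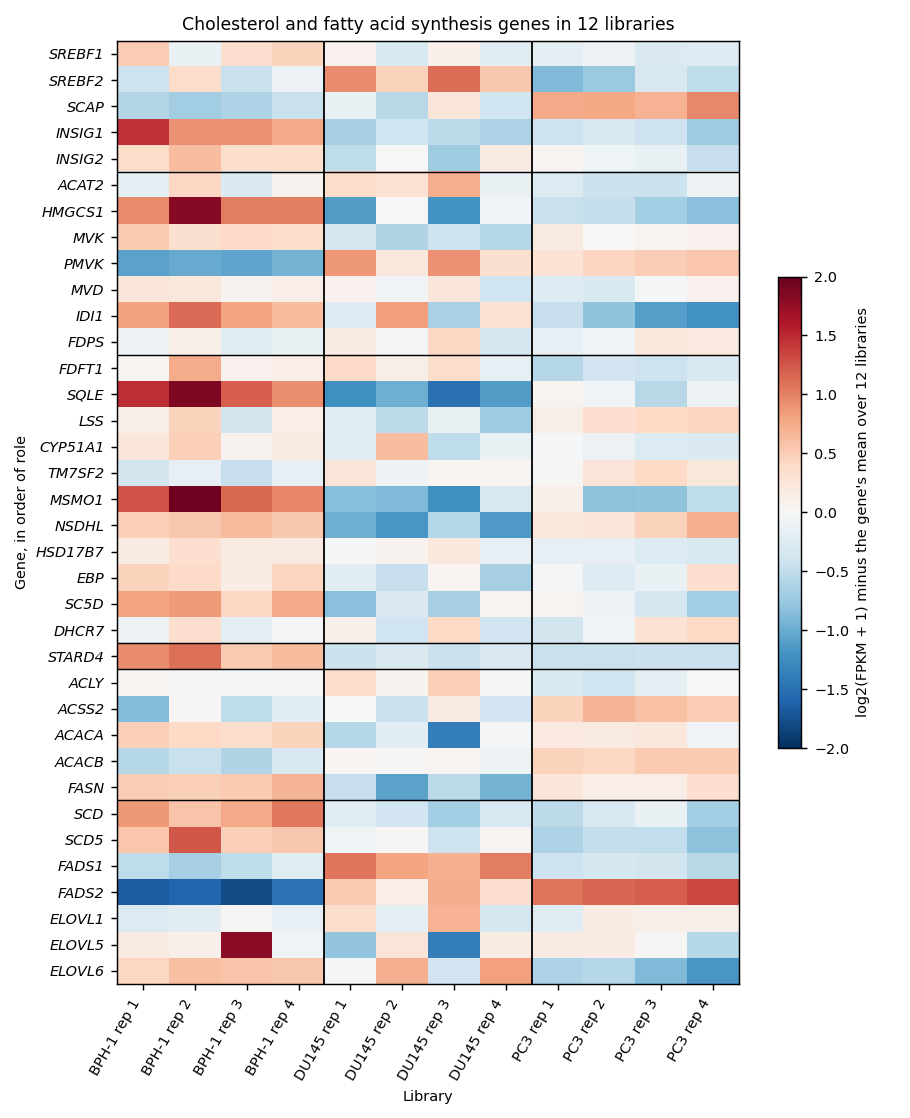
Each row is a gene, in order of role (separated by lines), and each column a library. The colour gives log2(FPKM + 1) minus the gene's mean over the 12 libraries, from blue (lower) to red (higher), and it saturates at 2 in either direction. HMGCS1, SQLE and MSMO1 are reddest in BPH-1, and FADS2 and PMVK are bluest there.

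**Figure D2:**
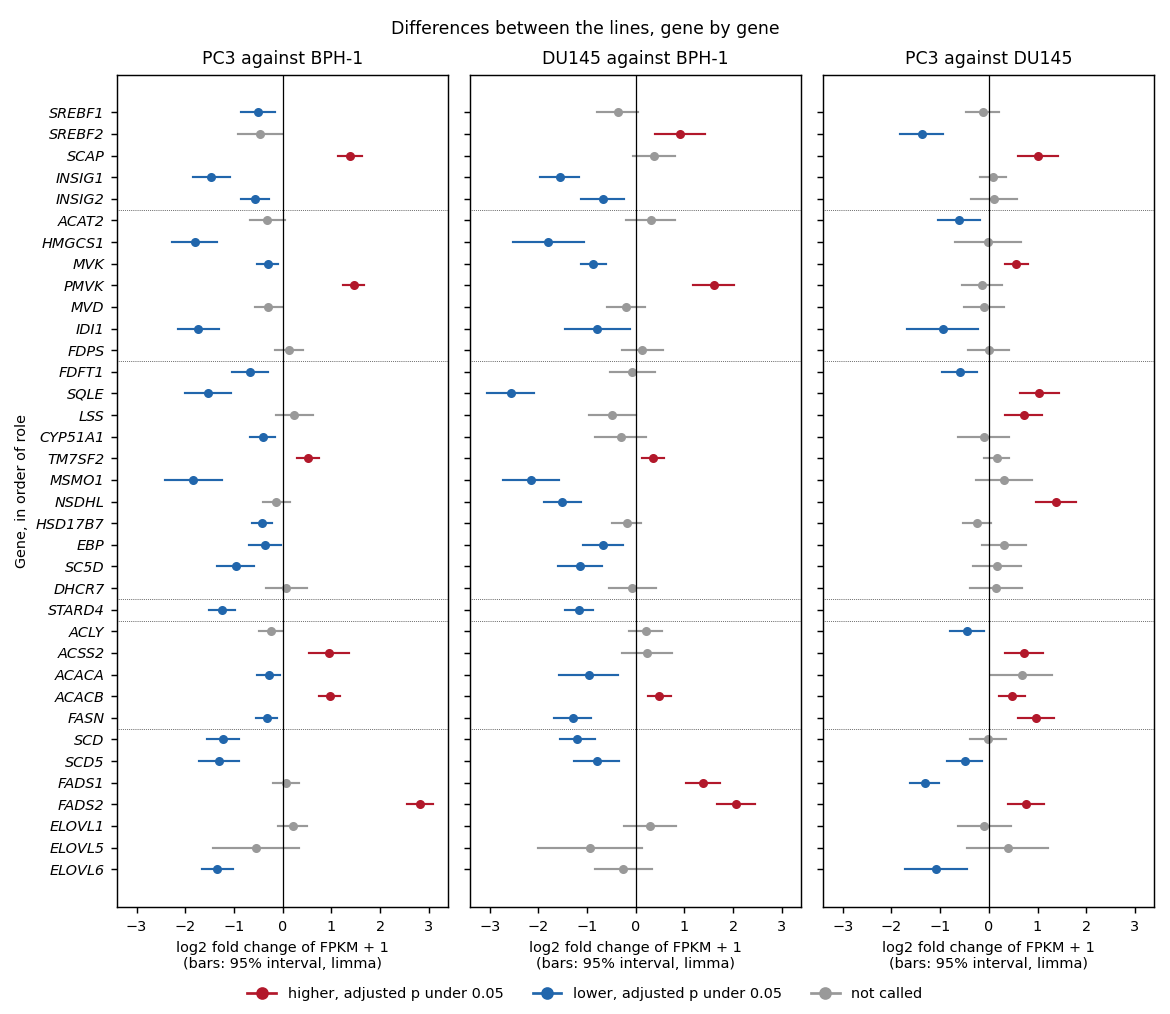
Points give the log2 fold change of FPKM + 1 for each gene, with bars for the 95% interval from limma, in the 3 comparisons of 4 against 4 libraries. Red marks genes called higher, blue genes called lower and grey genes not called. STARD4 has no point in PC3 against DU145, where it was not tested.

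The promoters of these genes are shown because several members moved in the same direction, and because SREBF proteins bind next to the factor NF-Y, whose site holds the letters CCAAT. RefSeq promoter sequences (GRCh38.p14) matched 32 of the 36 members; ACAT2, FDFT1, SQLE and FASN had no entry in the table used here. In the 250 bases before a start site, on either strand, CCAAT was found in 24 of the 32 members, or 75.0%. It was found in 32.0% of all 35116 promoters, in at least 1 promoter of 37.0% of all genes, and in 41.3% of the genes tested in PC3 against BPH-1. The sterol regulatory element TCACNCCAC was found in 1 member, SREBF2 itself, or 3.12%, against 1.09% of all genes, 1.15% of the tested genes and 0.883% of all promoters. The E-box CACGTG was found in 4 members (12.5%), against 6.34% of all promoters and 11.2% of the tested genes. Only these letters were searched, and CCAAT and TCACNCCAC did not overlap each other in the windows printed here.

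The windows below are written 5′ to 3′ in the direction of the gene, with the match in capitals. ATTGG is CCAAT read from the opposite strand. The SREBF2 window shows the sterol regulatory element, and the others show CCAAT in genes that were lower in at least 1 PCa line.
SREBF2, chr22:41832962-41832991 (plus strand): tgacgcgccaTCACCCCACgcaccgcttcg
INSIG1, chr7:155297681-155297740 (plus strand): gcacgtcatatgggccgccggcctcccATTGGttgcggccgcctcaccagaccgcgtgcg
HMGCS1, chr5:43313535-43313594 (minus strand): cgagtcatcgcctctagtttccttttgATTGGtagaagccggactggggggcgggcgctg
MSMO1, chr4:165327503-165327562 (plus strand): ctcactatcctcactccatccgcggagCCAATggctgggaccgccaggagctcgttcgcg
NSDHL, chrX:152830813-152830872 (plus strand): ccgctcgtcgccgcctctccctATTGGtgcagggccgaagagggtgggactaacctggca
STARD4, chr5:111512664-111512723 (minus strand): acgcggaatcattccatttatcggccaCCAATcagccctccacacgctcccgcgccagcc
SCD, chr10:100347020-100347079 (plus strand): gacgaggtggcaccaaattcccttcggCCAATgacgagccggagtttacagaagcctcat
SCD5, chr4:82798899-82798958 (minus strand): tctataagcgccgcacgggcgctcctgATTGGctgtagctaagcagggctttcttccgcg

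The SREBF2 match began 133 bases before a start, and the CCAAT matches of INSIG1, HMGCS1, MSMO1 and STARD4 printed here began 170, 155, 139 and 161 bases before one. By call, CCAAT was found in 12 of the 16 matched members that were lower in PC3 than in BPH-1, in 3 of the 6 that were higher, and in 9 of the 10 that were not called. In DU145 against BPH-1 it was found in 12 of 13, 3 of 6 and 9 of 13. Uncalled members thus carried the letters in both comparisons as well. The promoters of FADS2 and PMVK, both higher in each comparison with BPH-1, held no match in this window.

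Among the regulators, INSIG1 and INSIG2 were lower in both comparisons with BPH-1, SREBF2 was highest in DU145 and SCAP was highest in PC3. INSIG1, which retains the SREBF and SCAP complex when sterols are high, was at 6.39, 4.05, 4.05 and 3.54 FPKM in BPH-1, 0.695, 1.03, 0.867 and 0.748 in DU145 and 1.01, 1.18, 1.01 and 0.641 in PC3 (replicates 1 to 4). No library of either PCa line reached a BPH-1 library. The mean was 4.69-fold lower in PC3 (log2 fold change -1.47 ± 0.17, adjusted p = 5.05e-05) and 5.39-fold lower in DU145 (log2 fold change -1.56 ± 0.18, adjusted p = 4.79e-05). Its paralog INSIG2 was at 1.74, 2.24, 1.69 and 1.69 FPKM in BPH-1, 0.489, 1.1, 0.293 and 1.4 in DU145 and 1.2, 1, 0.913 and 0.544 in PC3. The PCa libraries again lay below all BPH-1 libraries, with DU145 replicates 1 and 3 below replicates 2 and 4. INSIG2 was lower in PC3 (log2 fold change -0.58 ± 0.13, adjusted p = 0.00292) and in DU145 (log2 fold change -0.68 ± 0.20, adjusted p = 0.0124). After a GC trend of each library was divided out, neither call held, and the log2 fold change in PC3 was 0.13. The DU145 call of INSIG2 was also lost with replicates 2 to 4 of each line only.

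SREBF2, which mainly drives cholesterol genes, was at 7.55, 13.7, 7.32 and 9.53 FPKM in BPH-1, 20.9, 14.7, 23.6 and 15.5 in DU145 and 5.19, 5.81, 8.1 and 7.03 in PC3. Every DU145 library exceeded every BPH-1 and PC3 library, though replicate 2 of BPH-1 came close to replicate 2 of DU145. It was higher in DU145 than in BPH-1 (log2 fold change 0.92 ± 0.23, adjusted p = 0.00608) and lower in PC3 than in DU145 (log2 fold change -1.38 ± 0.20, adjusted p = 0.000372). The call in DU145 against BPH-1 was lost with replicates 2 to 4 of each line only (limma adjusted p = 0.0595). PC3 against BPH-1 missed the threshold at a log2 fold change of -0.46 (95% interval -0.91 to -0.01, adjusted p = 0.0682). SREBF1, which mainly drives fatty acid genes, was at 5.56, 3.19, 4.81 and 5.26 FPKM in BPH-1, 3.88, 2.73, 3.91 and 2.98 in DU145 and 3, 3.28, 2.77 and 2.85 in PC3. Its libraries overlapped in every comparison, and replicate 2 of BPH-1 lay among the PCa libraries. SREBF1 was lower in PC3 than in BPH-1 (log2 fold change -0.50 ± 0.15, adjusted p = 0.0157), a call that was lost with upper-quartile scaling, and in DU145 the log2 fold change was -0.37 (95% interval -0.80 to 0.05).

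SCAP, the escort protein, was at 5.83, 5.31, 5.69 and 6.5 FPKM in BPH-1, 8.33, 5.92, 11 and 6.72 in DU145 and 16.3, 16.4, 15.5 and 18.9 in PC3. The 4 PC3 libraries lay above all others, while DU145 overlapped BPH-1. SCAP was 2.88-fold higher in PC3 than in BPH-1 (log2 fold change 1.38 ± 0.11, adjusted p = 4.02e-06) and higher than in DU145 (log2 fold change 1.01 ± 0.18, adjusted p = 0.00165). For DU145 against BPH-1 the log2 fold change was 0.37 (95% interval -0.06 to 0.80).

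**Figure D3:**
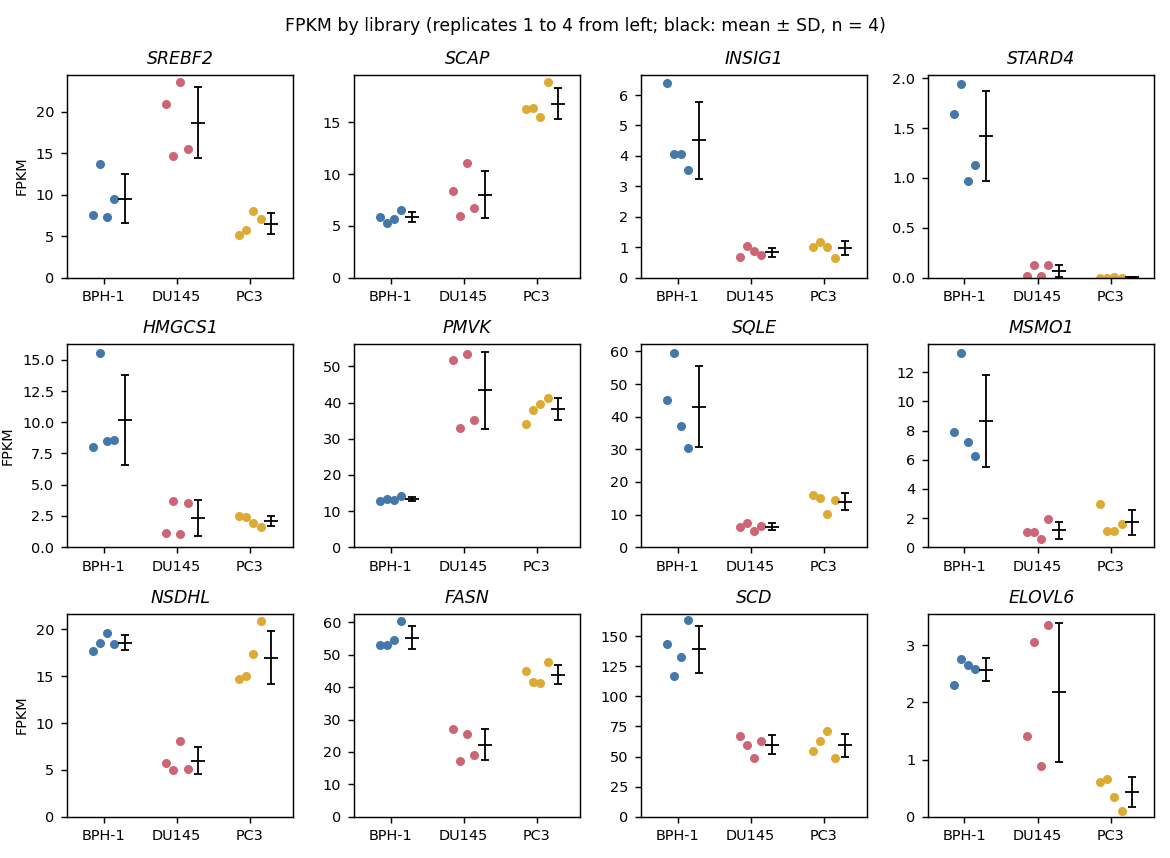
FPKM of 12 genes in each library, with replicates 1 to 4 from left to right within a line and the mean ± SD (n = 4) in black. Axes start at 0 and differ between panels. BPH-1 lies highest for INSIG1, STARD4, HMGCS1, SQLE, MSMO1, FASN and SCD and lowest for PMVK, DU145 lies lowest for NSDHL and highest for SREBF2, and PC3 lies highest for SCAP and lowest for ELOVL6.

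Of the 7 mevalonate genes, 3 were lower in PC3 than in BPH-1 (HMGCS1, MVK and IDI1) and PMVK was higher, and DU145 against BPH-1 gave calls for these 4 genes in the same directions. Among all genes tested, 40.5% were lower and 27.2% higher in PC3, and 32.3% and 30.3% in DU145, so these counts lay near the background. HMGCS1 makes hydroxymethylglutaryl-CoA, the entry to the pathway, and was at 8.05, 15.5, 8.52 and 8.61 FPKM in BPH-1, 1.16, 3.7, 1.06 and 3.53 in DU145 and 2.46, 2.39, 1.93 and 1.62 in PC3. All PCa libraries lay below all BPH-1 libraries, and replicate 2 of BPH-1 stood apart from the other BPH-1 libraries. The mean was 4.85-fold lower in PC3 (log2 fold change -1.81 ± 0.20, adjusted p = 4.23e-05) and 4.31-fold lower in DU145 (log2 fold change -1.79 ± 0.33, adjusted p = 0.000956). Between the PCa lines the log2 fold change was -0.02 (95% interval -0.70 to 0.66).

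IDI1, the isomerase that gives the active isoprene unit, was at 8.92, 11.6, 8.87 and 7.84 FPKM in BPH-1, 3.76, 9.15, 2.64 and 5.96 in DU145 and 3.15, 2.27, 1.65 and 1.46 in PC3. PC3 was below BPH-1 without overlap, whereas DU145 replicate 2 lay within the BPH-1 range and replicates 1 and 3 far below it. The PC3 decrease was 4.36-fold (log2 fold change -1.73 ± 0.19, adjusted p = 3.17e-05). The DU145 decrease (log2 fold change -0.79 ± 0.30, adjusted p = 0.0395) passed the test with all 8 libraries and lost the call when any of BPH-1 replicates 1 to 4 or DU145 replicate 1 or 3 was left out (adjusted p 0.00430 to 0.625 over the alternatives). IDI1 was lower in PC3 than in DU145 (log2 fold change -0.95 ± 0.32, adjusted p = 0.0361), which was lost without DU145 replicate 2 or 4, or without PC3 replicate 2, 3 or 4.

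MVK and PMVK phosphorylate mevalonate in turn and moved in opposite directions. PMVK was at 12.8, 13.4, 12.9 and 14.1 FPKM in BPH-1, 51.8, 33, 53.4 and 35.2 in DU145 and 34.2, 38, 39.7 and 41.4 in PC3. Every PCa library exceeded every BPH-1 library, and the DU145 libraries fell into a higher pair (replicates 1 and 3) and a lower pair. PMVK was 2.88-fold higher in PC3 (log2 fold change 1.46 ± 0.10, adjusted p = 1.57e-06) and 3.26-fold higher in DU145 (log2 fold change 1.60 ± 0.19, adjusted p = 5.58e-05). MVK ranged over 1.87 to 2.31 FPKM in BPH-1, 0.517 to 0.809 in DU145 and 1.32 to 1.6 in PC3, and no line overlapped another. It was lower in DU145 than in BPH-1 (log2 fold change -0.88 ± 0.12, adjusted p = 0.000119) and higher in PC3 than in DU145 (log2 fold change 0.56 ± 0.10, adjusted p = 0.00175). The lower level in PC3 than in BPH-1 was small (log2 fold change -0.31 ± 0.10, adjusted p = 0.0175) and lost its call without BPH-1 replicate 1 or PC3 replicate 2. That call was also lost with median-of-ratios or upper-quartile scaling and with replicates 2 to 4 of each line only.

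ACAT2 (acetoacetyl-CoA thiolase), MVD (mevalonate diphosphate decarboxylase) and FDPS (farnesyl diphosphate synthase) had no call against BPH-1. ACAT2 ranged over 15.6 to 25.9 FPKM in BPH-1, 17.3 to 32.3 in DU145 and 13.9 to 17.9 in PC3 and was lower in PC3 than in DU145 (log2 fold change -0.62 ± 0.19, adjusted p = 0.0241). That call was lost without DU145 replicate 1 or without PC3 replicate 1, 2 or 3, and a share of the exonic bases of ACAT2 (9.23%) lies opposite exons of TCP1, which averaged 35 FPKM. Other annotated exons also lie opposite ACAT2, so its reads are uncertain. MVD ranged over 4.24 to 4.87 FPKM in BPH-1, 2.79 to 4.89 in DU145 and 3.02 to 4.3 in PC3, with log2 fold changes of -0.29 in PC3 (95% interval -0.57 to -0.01) and -0.20 in DU145 (95% interval -0.59 to 0.18). FDPS ranged over 8.78 to 11.4 FPKM in BPH-1, 7.97 to 14.2 in DU145 and 9.28 to 12.3 in PC3, with log2 fold changes of 0.13 in either line (95% interval -0.16 to 0.42 in PC3, and -0.28 to 0.55 in DU145). FDPS has pseudogene copies that could share its reads, so its values are uncertain.

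Of the 11 genes of the squalene and sterol steps, 7 were lower and TM7SF2 higher in PC3 than in BPH-1, and 5 were lower and TM7SF2 higher in DU145. Beside this, 40.5% of all genes tested were lower and 27.2% higher in PC3, and 32.3% and 30.3% in DU145. SQLE, the epoxidase that is a rate-limiting enzyme of cholesterol synthesis, was at 45.3, 59.5, 37 and 30.5 FPKM in BPH-1, 6.07, 7.47, 4.89 and 6.66 in DU145 and 16.1, 15, 10.3 and 14.5 in PC3. The 3 lines did not overlap, with BPH-1 highest, PC3 next and DU145 lowest. SQLE was 6.87-fold lower in DU145 (log2 fold change -2.57 ± 0.22, adjusted p = 7.77e-06) and 3.08-fold lower in PC3 (log2 fold change -1.53 ± 0.21, adjusted p = 0.000154). The PCa lines differed from each other as well (log2 fold change 1.04 ± 0.18, adjusted p = 0.0012).

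MSMO1, a methylsterol oxidase of the demethylation steps, was at 7.91, 13.3, 7.23 and 6.27 FPKM in BPH-1, 1.05, 1.02, 0.593 and 1.97 in DU145 and 2.97, 1.1, 1.12 and 1.63 in PC3. All PCa libraries lay below all BPH-1 libraries and the PCa lines overlapped. The mean was 5.09-fold lower in PC3 (log2 fold change -1.84 ± 0.26, adjusted p = 0.000188) and 7.5-fold lower in DU145 (log2 fold change -2.15 ± 0.26, adjusted p = 6.34e-05). NSDHL, the dehydrogenase that acts after MSMO1, was at 17.7, 18.5, 19.7 and 18.5 FPKM in BPH-1, 5.78, 5, 8.04 and 5.11 in DU145 and 14.7, 15, 17.4 and 20.9 in PC3. Only DU145 stood apart, with all of its libraries below those of BPH-1 and PC3. NSDHL was lower in DU145 than in BPH-1 (log2 fold change -1.51 ± 0.17, adjusted p = 3.98e-05) and higher in PC3 than in DU145 (log2 fold change 1.37 ± 0.18, adjusted p = 0.000229), while PC3 against BPH-1 gave -0.14 (95% interval -0.41 to 0.14).

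SC5D, a sterol desaturase of the last steps, was at 2.71, 2.85, 1.85 and 2.6 FPKM in BPH-1, 0.193, 0.743, 0.347 and 1.22 in DU145 and 1.23, 0.975, 0.694 and 0.337 in PC3. Both PCa lines lay below BPH-1 without overlap and varied over severalfold among their own libraries. SC5D was lower in PC3 (log2 fold change -0.97 ± 0.17, adjusted p = 0.000721) and in DU145 (log2 fold change -1.14 ± 0.20, adjusted p = 0.00077). EBP, a sterol isomerase, ranged over 5.96 to 7.51 FPKM in BPH-1, 2.96 to 5.43 in DU145 and 4.25 to 6.93 in PC3. It was lower in DU145 (log2 fold change -0.68 ± 0.18, adjusted p = 0.00877), a call lost with upper-quartile scaling and with replicates 2 to 4 of each line only. In PC3 it passed narrowly (log2 fold change -0.37 ± 0.15, adjusted p = 0.046). That PC3 call held in 6 of 19 alternatives, the fold change limit not counted.

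FDFT1, which makes squalene, ranged over 1.93 to 3.76 FPKM in BPH-1, 1.55 to 2.73 in DU145 and 0.907 to 1.31 in PC3. PC3 lay below both other lines, with a lower level than in BPH-1 (log2 fold change -0.67 ± 0.16, adjusted p = 0.00506) and than in DU145 (log2 fold change -0.60 ± 0.16, adjusted p = 0.0114). The call against DU145 was lost when replicate number was fitted as a block and with replicates 2 to 4 of each line only. DU145 against BPH-1 gave -0.07 (95% interval -0.53 to 0.39). LSS, which closes the sterol rings, ranged over 3.54 to 7.02 FPKM in BPH-1, 2.6 to 4.32 in DU145 and 5.4 to 6.89 in PC3 and was called only between the PCa lines, being higher in PC3 (log2 fold change 0.72 ± 0.17, adjusted p = 0.00657). Its log2 fold changes against BPH-1 were 0.24 in PC3 (95% interval -0.15 to 0.63) and -0.48 in DU145 (95% interval -0.96 to -0.00).

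CYP51A1, the lanosterol demethylase, ranged over 19.3 to 25.7 FPKM in BPH-1, 12.6 to 28.6 in DU145 and 14.7 to 18 in PC3 and was lower in PC3 than in BPH-1 (log2 fold change -0.42 ± 0.12, adjusted p = 0.0108), but the log2 fold change was 0.23 after the GC trend was divided out. An annotated readthrough gene shares 79.4% of its exonic bases, so its reads are uncertain. HSD17B7, a sterol ketoreductase that also has a pseudogene copy, ranged over 1.77 to 2.14 FPKM in BPH-1, 1.23 to 1.9 in DU145 and 1.02 to 1.24 in PC3 and was lower in PC3 than in BPH-1 (log2 fold change -0.43 ± 0.09, adjusted p = 0.00254), a call lost with the GC correction. TM7SF2, a sterol reductase, was low throughout, at 0.178 to 0.445 FPKM in BPH-1, 0.503 to 0.925 in DU145 and 0.64 to 1.12 in PC3, and was higher in PC3 (log2 fold change 0.51 ± 0.10, adjusted p = 0.00141) and in DU145 (log2 fold change 0.35 ± 0.10, adjusted p = 0.0124) than in BPH-1. The DU145 call was lost with the GC correction and with replicates 2 to 4 of each line only. DHCR7, the reductase of the last step, ranged over 9.14 to 13.8 FPKM in BPH-1, 7.87 to 14.3 in DU145 and 8.07 to 14.4 in PC3 and had no call, with log2 fold changes of 0.07 in PC3 (95% interval -0.35 to 0.49) and -0.07 in DU145 (95% interval -0.56 to 0.41).

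STARD4, a soluble protein that carries cholesterol between membranes, was almost absent from the PCa lines. It was at 1.65, 1.94, 0.97 and 1.13 FPKM in BPH-1, 0.0177, 0.123, 0.0139 and 0.123 in DU145 and 0, 0, 0.0103 and 0 in PC3. In reads, BPH-1 libraries held 354, 413, 210 and 246, DU145 libraries 4, 28, 3 and 23, and PC3 libraries 0, 0, 2 and 0. Per read sequenced, BPH-1 had 20.9 times the STARD4 reads of DU145 (exact 95% interval 16.1 to 27.7) and 529 times those of PC3 (146 to 4374), where the intervals cover counting error only. The test called it lower in PC3 (log2 fold change -1.25 ± 0.12, adjusted p = 1.47e-05) and in DU145 (log2 fold change -1.16 ± 0.13, adjusted p = 3.58e-05), on a scale that holds such low values together. PC3 and DU145 were not tested against each other because too few reads were present.

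In the branch to fatty acids, FASN and ACACA were lower and ACACB was higher in each comparison with BPH-1. FASN, the synthase that builds palmitate, was at 53.1, 53, 54.6 and 60.5 FPKM in BPH-1, 27, 17.3, 25.6 and 19.1 in DU145 and 44.8, 41.5, 41.3 and 47.6 in PC3. The lines did not overlap, and DU145 was lowest. FASN was 2.49-fold lower in DU145 than in BPH-1 (log2 fold change -1.30 ± 0.17, adjusted p = 0.000127) and higher in PC3 than in DU145 (log2 fold change 0.97 ± 0.16, adjusted p = 0.00106). The decrease in PC3 against BPH-1 was small (log2 fold change -0.33 ± 0.09, adjusted p = 0.011), lost its call with median-of-ratios scaling, and came to 0.058 with upper-quartile scaling.

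ACACA, the cytosolic carboxylase that makes malonyl-CoA for synthesis, was at 8.64, 8.11, 7.77 and 8.43 FPKM in BPH-1, 3.63, 4.94, 1.65 and 5.77 in DU145 and 6.9, 6.77, 6.97 and 5.6 in PC3. BPH-1 lay above both other lines, and DU145 spread from replicate 3, the lowest library, to replicate 4. It was lower in DU145 (log2 fold change -0.97 ± 0.27, adjusted p = 0.0101), a call lost with replicates 2 to 4 of each line only. ACACA was slightly lower in PC3 (log2 fold change -0.29 ± 0.11, adjusted p = 0.0323), where upper-quartile scaling gave 0.055 and the call was also lost without BPH-1 replicate 1 or 4 or PC3 replicate 2. ACACB, the carboxylase of the mitochondrial surface, was at 0.535, 0.677, 0.509 and 0.853 FPKM in BPH-1, 1.34, 1.34, 1.36 and 1.14 in DU145 and 2.16, 2.04, 2.28 and 2.3 in PC3. The 3 lines did not overlap, in the order BPH-1, DU145, PC3 from the lowest. ACACB was higher in PC3 (log2 fold change 0.96 ± 0.10, adjusted p = 2.2e-05) and in DU145 (log2 fold change 0.49 ± 0.10, adjusted p = 0.00232) than in BPH-1.

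ACLY and ACSS2 supply acetyl-CoA from citrate and from acetate. ACSS2 ranged over 1.85 to 4.3 FPKM in BPH-1, 2.87 to 4.87 in DU145 and 6.11 to 7.3 in PC3. PC3 lay above both other lines and was higher than BPH-1 (log2 fold change 0.95 ± 0.18, adjusted p = 0.00133) and than DU145 (log2 fold change 0.72 ± 0.17, adjusted p = 0.00724), and DU145 against BPH-1 gave 0.23 (95% interval -0.28 to 0.74). ACLY ranged over 47.2 to 49.8 FPKM in BPH-1, 47.3 to 67.2 in DU145 and 36.3 to 47.7 in PC3, with little spread in BPH-1. Its log2 fold changes against BPH-1 were -0.24 in PC3 (95% interval -0.48 to -0.01) and 0.20 in DU145 (95% interval -0.13 to 0.54). Between the PCa lines ACLY was lower in PC3 (log2 fold change -0.45 ± 0.15, adjusted p = 0.0376), a call lost without DU145 replicate 1 or 3 or PC3 replicate 1, 2 or 3.

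Among the desaturases, SCD and SCD5, which make monounsaturated fatty acids, were lower in each comparison with BPH-1, and FADS2, which acts on polyunsaturated fatty acids, was higher. SCD was at 143, 117, 133 and 163 FPKM in BPH-1, 67.1, 59.7, 48.7 and 63 in DU145 and 54.3, 62.8, 71.1 and 48.6 in PC3. It had the highest FPKM of the members in every line, and all PCa libraries lay below all BPH-1 libraries. The mean was 2.35-fold lower in PC3 (log2 fold change -1.22 ± 0.15, adjusted p = 6.27e-05) and 2.33-fold lower in DU145 (log2 fold change -1.21 ± 0.16, adjusted p = 0.000133). Between the PCa lines the log2 fold change was -0.02 (95% interval -0.38 to 0.35).

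SCD5 was at 11.7, 19.5, 11 and 11.6 FPKM in BPH-1, 7.14, 7.82, 5.53 and 7.99 in DU145 and 4.66, 5.21, 5.17 and 3.89 in PC3. No line overlapped another, with PC3 lowest, and replicate 2 of BPH-1 stood above the rest. It was lower in PC3 (log2 fold change -1.30 ± 0.18, adjusted p = 0.000165) and in DU145 (log2 fold change -0.81 ± 0.21, adjusted p = 0.00685) than in BPH-1. The lower level in PC3 than in DU145 (log2 fold change -0.50 ± 0.16, adjusted p = 0.0272) lost its call without DU145 replicate 1, 2 or 4 or PC3 replicate 1 or 4.

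FADS1 and FADS2 lie side by side on chromosome 11 (GRCh38, chr11:61799625-61829318 on the minus strand and chr11:61792980-61867354 on the plus strand) and share 490 exonic bases on opposite strands, 4.79% of FADS1 and 4.44% of FADS2. FADS2, the enzyme of the first desaturation of dietary polyunsaturated fatty acids, was at 0.811, 0.922, 0.671 and 1.07 FPKM in BPH-1, 7.26, 5.3, 8.65 and 6.26 in DU145 and 11.1, 11.9, 12.4 and 13.5 in PC3. The lines did not overlap, with PC3 highest and BPH-1 lowest. FADS2 showed the largest rise of the 36 genes in each comparison with BPH-1, 14-fold in PC3 (log2 fold change 2.82 ± 0.12, adjusted p = 8.95e-08) and 7.9-fold in DU145 (log2 fold change 2.06 ± 0.17, adjusted p = 7.33e-06). FADS1, which acts later in the same route, was at 6.92, 6.11, 6.92 and 8.51 FPKM in BPH-1, 22.5, 18.4, 17.4 and 21.9 in DU145 and 7.44, 7.85, 7.74 and 6.68 in PC3. DU145 alone stood apart, above all other libraries. FADS1 was 2.82-fold higher in DU145 than in BPH-1 (log2 fold change 1.38 ± 0.16, adjusted p = 5.17e-05) and lower in PC3 than in DU145 (log2 fold change -1.32 ± 0.13, adjusted p = 4.83e-05), while PC3 against BPH-1 gave 0.06 (95% interval -0.21 to 0.33).

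ELOVL6, which lengthens palmitate, was at 2.29, 2.75, 2.65 and 2.59 FPKM in BPH-1, 1.4, 3.06, 0.884 and 3.35 in DU145 and 0.604, 0.663, 0.341 and 0.0983 in PC3. PC3 lay below every other library, and replicates 2 and 4 of DU145 lay above BPH-1 while replicates 1 and 3 lay below it. ELOVL6 was lower in PC3 than in BPH-1 (log2 fold change -1.34 ± 0.14, adjusted p = 2.44e-05) and than in DU145 (log2 fold change -1.09 ± 0.28, adjusted p = 0.0102), and DU145 against BPH-1 gave -0.25 (95% interval -0.84 to 0.33). ELOVL1, an elongase of very long saturated chains, ranged over 4.56 to 5.89 FPKM in BPH-1, 4.31 to 9.97 in DU145 and 4.72 to 6.46 in PC3 and had no call. ELOVL5, an elongase of polyunsaturated chains, had no call either, at 12, 11.4, 39.5 and 9.86 FPKM in the BPH-1 libraries, 3.44 to 12.9 in DU145 and 6.82 to 12 in PC3. Replicate 3 stood far above the other BPH-1 libraries, and the DU145 libraries were spread as well. The log2 fold changes of ELOVL5 were -0.55 in PC3 (95% interval -1.43 to 0.32) and -0.94 in DU145 (95% interval -2.01 to 0.13).

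The ratio of paralogs within a library differed between lines for some pairs, described here without a test. The size of a ratio depends on the gene lengths used, and its change between lines does not. FADS1 exceeded FADS2 6.63 to 10.3 times in BPH-1 and 2.01 to 3.5 times in DU145, and in PC3 it was 0.496 to 0.671 of FADS2. The desaturase with the higher FPKM thus changed. ACACA exceeded ACACB 9.88 to 16.2 times in BPH-1, 1.21 to 5.06 times in DU145 and 2.43 to 3.33 times in PC3. SREBF2 exceeded SREBF1 in every library, by 1.36 to 4.30 times in BPH-1, 5.21 to 6.03 in DU145 and 1.73 to 2.93 in PC3. INSIG1 was 1.8 to 3.66 times INSIG2 in BPH-1, and the ratio spanned 1 in DU145 (0.536 to 2.96) and PC3 (0.845 to 1.18). SCD was 6.01 to 14.1 times SCD5 over the BPH-1 libraries, which covered the ratios of DU145 (7.64 to 9.40) and PC3 (11.7 to 13.8).

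**Figure D4:**
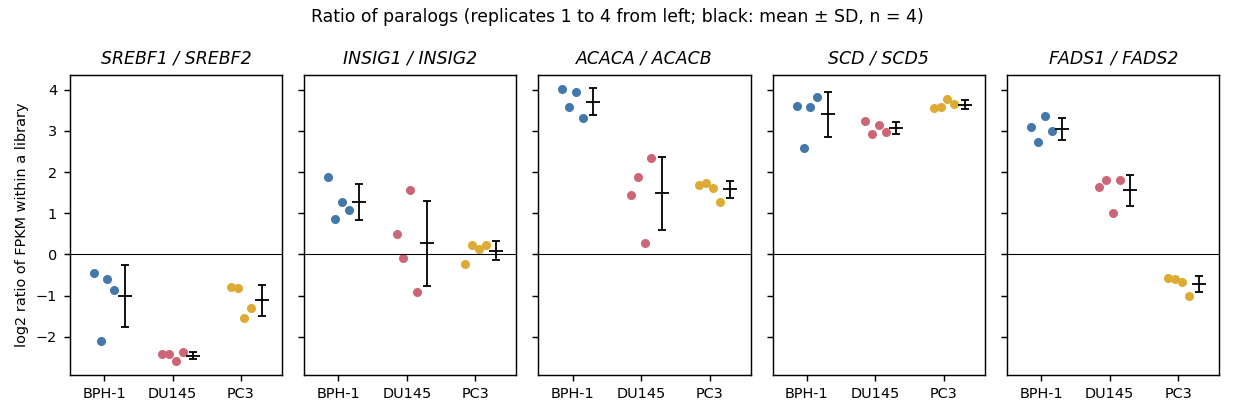
The log2 ratio of FPKM between paralogs within each library, for 5 pairs, with replicates 1 to 4 from left to right and the mean ± SD (n = 4) in black. Values above 0 mean a higher FPKM of the first gene. The ratio of FADS1 to FADS2 is above 0 in every BPH-1 and DU145 library and below 0 in every PC3 library.

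Levels of the members spanned from SCD, at 139 ± 19.3 FPKM in BPH-1, 59.6 ± 7.91 in DU145 and 59.2 ± 9.84 in PC3 (mean ± SD, n = 4), down to TM7SF2 in BPH-1 (0.329 ± 0.137) and STARD4 in the PCa lines. After SCD came FASN, ACLY and SQLE in BPH-1, ACLY, PMVK and ACAT2 in DU145, and FASN, ACLY and PMVK in PC3. By FPKM, SQLE was thus among the 5 highest members in BPH-1 and in neither PCa line.

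Libraries of a line differed over groups of these genes together. In BPH-1, replicate 2 was the highest of the 4 libraries for 18 of the 36 members, and for 33.6% of all genes. Of the 11 squalene and sterol genes it was highest for 8 (FDFT1, SQLE, LSS, CYP51A1, MSMO1, HSD17B7, SC5D and DHCR7), and of the 7 mevalonate genes for 4. Replicate 3 was the lowest for 16 members, or 44.4%, against 26.5% of all genes. Without BPH-1 replicate 2 the lower call of EBP was lost in PC3 against BPH-1, and in DU145 against BPH-1 that of IDI1 was lost and SREBF1 was called lower. The losses are not particular to this library. EBP was also lost without BPH-1 replicate 1 or 4 or PC3 replicate 1, 2 or 3, and IDI1 without BPH-1 replicate 1, 3 or 4 or DU145 replicate 1 or 3.

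The deviations of the members within a line were also set against GC content. In DU145, members with little GC tended to be low in replicates 1 and 3 and high in replicates 2 and 4, as in HMGCS1, IDI1 and ELOVL6. Not all did so: HSD17B7, at 41.7% GC, was highest in replicate 3 and lowest in replicate 4. The rank correlation between a member's deviation from the line's mean and its transcript GC content was 0.753, -0.851, 0.585 and -0.473 in DU145 replicates 1 to 4 (32 members with 50 reads or more), and over all such genes it was 0.654, -0.726, 0.698 and -0.611. In PC3 it was -0.671, -0.414, 0.288 and 0.575 over 33 members. In BPH-1 replicates 1 to 4 it was 0.0468, -0.336, 0.142 and 0.555 over 35 members, while over all genes it did not exceed 0.207 in size. These correlations are across genes of the same library, which are not independent, and they are given as a description. With the GC trend of each library divided out, the calls were 6 higher and 22 lower in PC3 against BPH-1, 5 higher and 17 lower in DU145 against BPH-1, and 9 higher and 8 lower in PC3 against DU145. Over all genes, the same correction gave 3925 higher and 6779 lower of 16351, 4871 and 5762 of 17074, and 3817 and 5375 of 16215. The part of GC content in the single decreases was not tested beyond this correction.

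**Figure D5:**
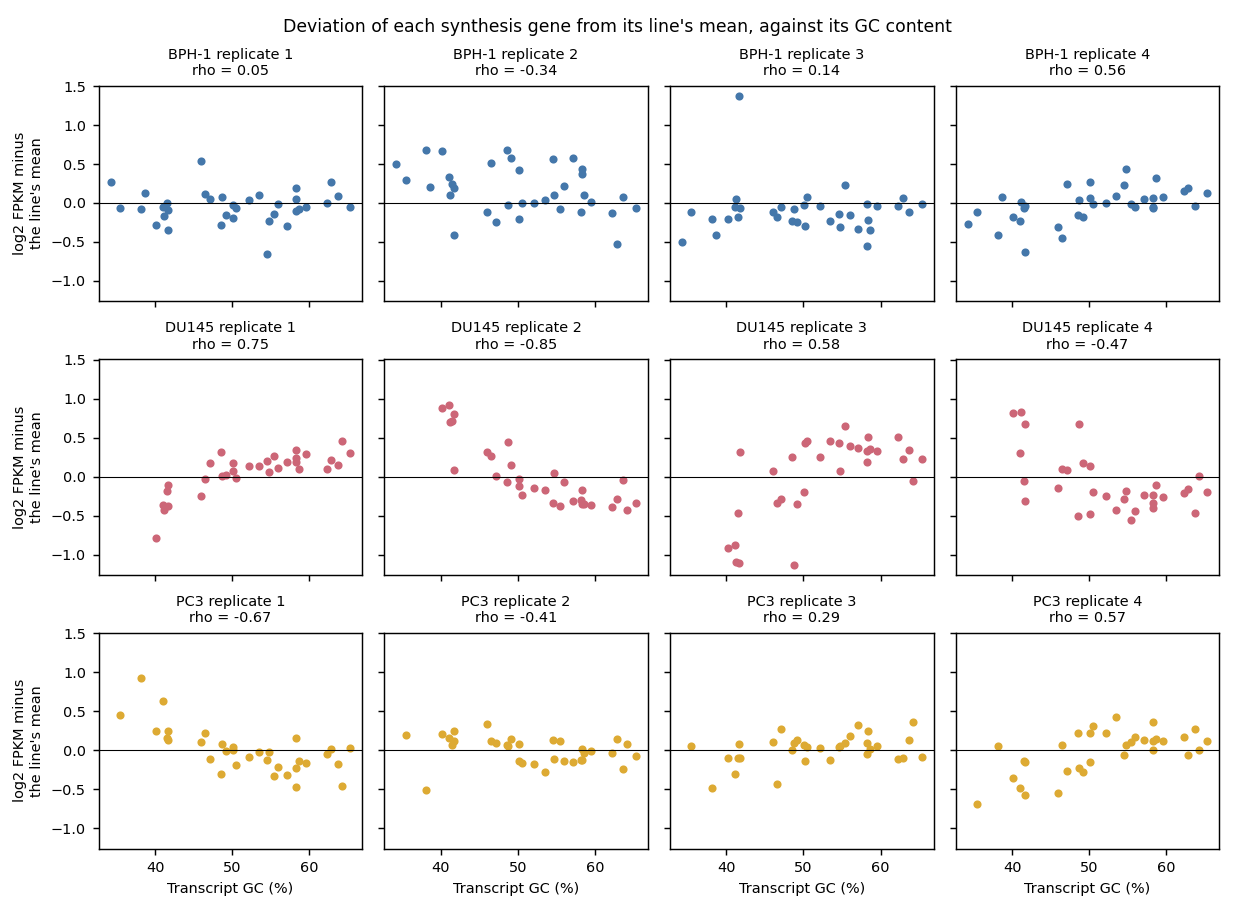
Each point is a synthesis gene with at least 50 reads in every library of its line, at its transcript GC content (percent) and its log2 FPKM minus the line's mean, with 1 panel per library and Spearman's rho above it. In DU145 the slope rises in replicates 1 and 3 and falls in replicates 2 and 4, and BPH-1 replicate 3 holds 1 point far above the rest, ELOVL5.

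Other genes of the pathway were counted from a list of 50 that act in sterol sensing, lipid uptake and efflux, fatty acid activation and further elongation. In PC3 against BPH-1, 14 of the 48 tested were higher and 23 lower, beside 27.2% and 40.5% of all genes tested, with a median log2 fold change of -0.26 against -0.13 over all genes. DGAT1, which completes triglyceride synthesis, rose from 1.62 to 2.41 FPKM in BPH-1 to 14.1 to 16.9 in PC3 (log2 fold change 2.47, adjusted p = 2.48e-07), and the elongase ELOVL2 was higher too (1.61, adjusted p = 3.37e-05). The fatty acid-activating ligase ACSL4 had the largest fall, from 18.1 to 21.7 FPKM in BPH-1 to 0.576 to 2.72 in PC3 (-3.06, adjusted p = 5.19e-06), followed by the elongation enzyme HACD2 (-2.17, adjusted p = 0.000284).

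In DU145 against BPH-1, 13 of the 47 tested were higher and 18 lower, beside 30.3% and 32.3% of all genes (median -0.05, and -0.03 over all genes). NPC1, which exports cholesterol from lysosomes, was at 22.7 to 30.6 FPKM in DU145 and 3.08 to 5.04 in BPH-1 (log2 fold change 2.46, adjusted p = 2.88e-06). The lipoprotein receptor VLDLR was also higher (2.36, adjusted p = 2.84e-05), and the ligases ACSL3 and ACSL4 were lower (-2.95, adjusted p = 2.11e-05, and -2.82, adjusted p = 1.60e-05). In PC3 against DU145, 10 of 48 were higher and 11 lower, beside 20% and 28.3% of all genes (median -0.11, and -0.05 over all genes). The sterol hydroxylase CYP27A1 was higher in PC3 (1.33, adjusted p = 5.25e-06), and VLDLR (-1.97, adjusted p = 0.000242) and NPC1 (-1.72, adjusted p = 1.95e-05) were lower.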

How the data were processed

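RNA-seq libraries of BPH-1, DU145 and PC3 (4 each) were analysed, each column of the table being assigned by its name, and 0 columns had no library. The table holds 58302 genes, and its header names no unit. The values behave as FPKM computed by the authors and are called FPKM here. Per the submitters' processing notes, CASAVA 1.8, HISAT2 2.1.0, edgeR and GRCh38 were used; the counting program, annotation and use of strand are not given in the sources used here. The locus matched GENCODE 29 for 56567 genes and 34 of the 36 members.

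Library depth (12950665 to 16309559 reads) and reads per gene were recovered from the steps between low values, of which 96.1% to 96.9% per library came out whole (within 0.01 read). Reads of CYP51A1, HSD17B7, IDI1 and SCAP did not come out whole, which affects their reads and not their FPKM. For 263 genes no length was found, and they were left out. Intervals cover counting error only.

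The main test was limma 3.58.1 (R 4.3.3; trend on mean level) on log2(FPKM + 1) of the lines compared, over genes with 10 reads or more at the median depth in at least 4 libraries and 15 in all. P-values were Benjamini-Hochberg adjusted over all genes tested, with calls at 0.05. On data simulated with a small fixed spread and no GC trend, 99.0% to 100% of 200 changed genes were recovered in the 3 comparisons. The changes were 2-fold or 4-fold in well-covered genes, and 16, 7 and 9 unchanged genes were called. Smaller changes and the spread of these libraries were not simulated, so the recovery does not extend to them. Alternatives were no or a stricter filter, a replicate block, a single fit of the 3 lines, replicates 2 to 4 only, leaving out each library, a pseudocount of 0.1, 3 scalings, a GC correction, voom on the recovered reads, and an absolute log2 fold change over 1. Figures were drawn with matplotlib 3.10.9 in Python 3.11.15.

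The members and the other gene lists were chosen with earlier results of these data known. By rule, values in every library are given for members called in a comparison with an absolute log2 fold change over 1 and for 5 paralog pairs, and of the other pathway genes the 2 largest rises and falls per comparison are named. Results of some genes that the rule names are not reported here.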

Additional observations from a re-analysis of the deposited data

Results flagged for a closer look

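In each line the highest and lowest of the 4 libraries were compared with the rest for every member, 108 groups of 4 libraries in all. In 10 groups 1 library stood apart, its gap to the nearest other library being above Dixon's critical value for 4 values. For independent groups of normal values, chance gives about 1 in 20 groups, or 5.4. The groups share libraries and are not independent, and the rate over all genes is not given. The 10 groups are thus listed as a description. Replicate 2 of BPH-1 accounted for 5 of them, each time as the highest library: INSIG2 at 2.24 FPKM (others 1.69 to 1.74), HMGCS1 at 15.5 (others 8.05 to 8.61), FDFT1 at 3.76 (others 1.93 to 2.11), HSD17B7 at 2.14 (others 1.77 to 1.83) and SCD5 at 19.5 (others 11.0 to 11.7). Replicate 3 of BPH-1 was high for ELOVL5, at 39.5 FPKM against 9.86 to 12 in the others. In PC3, ACACA was low in replicate 4 (5.60, others 6.77 to 6.97), ELOVL1 was low in replicate 1 (4.72, others 6.34 to 6.46), and STARD4 was above 0 only in replicate 3 (0.0103, from 2 reads). With the other values at 0, any such value of STARD4 would be flagged. In DU145, ACACB was low in replicate 4 (1.14, others 1.34 to 1.36).

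For 17 members the difference from BPH-1 was itself different between the PCa lines, by the limma test of PC3 against DU145 (Benjamini-Hochberg adjusted p under 0.05). They are 48.6% of the 35 members tested, beside 48.3% of all 16215 genes tested, so their number lay at the background. PC3 was higher for NSDHL (log2 difference 1.37), SQLE (1.04), SCAP (1.01), FASN (0.97), FADS2 (0.76), LSS (0.72), ACSS2 (0.72), MVK (0.56) and ACACB (0.48). PC3 was lower for SREBF2 (-1.38), FADS1 (-1.32), ELOVL6 (-1.09), IDI1 (-0.95), ACAT2 (-0.62), FDFT1 (-0.60), SCD5 (-0.50) and ACLY (-0.45). Of these 17 calls, 11 held under every alternative other than the fold change limit: SREBF2, SCAP, MVK, SQLE, LSS, NSDHL, ACSS2, FASN, FADS1, FADS2 and ELOVL6.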

How the results depend on the processing

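Single members gave 2031 values under the alternatives other than the fold change limit. Of these, 1904 kept their direction and call, or had no call in either fit. In 87 a call was lost, in 35 one was gained and in 5 the sign turned, all 5 in PC3 against BPH-1. Upper-quartile scaling turned FASN to 0.058 and ACACA to 0.055, and the GC correction turned CYP51A1 to 0.23, INSIG2 to 0.13 and FDPS to -0.29. A further 67 values changed sign with no call in either fit. The fold change limit is given apart below. Under all other alternatives, 17 of 25 calls held in PC3 against BPH-1 and 15 of 21 in DU145 against BPH-1. In PC3 against DU145, 11 of 17 held. STARD4 is counted as held against BPH-1, though the stricter filter left it untested.

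Requiring an absolute log2 fold change over 1 left 3 higher and 9 lower in each comparison with BPH-1, and 3 higher and 3 lower in PC3 against DU145. Upper-quartile scaling gave 10 higher and 12 lower in PC3 against BPH-1 and 5 lower in PC3 against DU145. Leaving out 1 library at a time gave 6 higher and 16 to 22 lower in PC3 against BPH-1, 6 to 7 higher and 14 to 16 lower in DU145 against BPH-1, and 9 to 10 higher and 5 to 7 lower in PC3 against DU145. Replicates 2 to 4 of each line gave 4 lower in the last, beside 3479 lower of all 16319 genes then tested. Beyond the fewer libraries fitted, the cause was not tested.

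Replicate numbers did not pair the libraries, since the correlations of deviations between same-numbered libraries ranged from -0.2 to 0.126 for PC3 and BPH-1, were negative for DU145 and BPH-1, and ranged from -0.734 to 0.588 for PC3 and DU145. With the replicate block the calls were 6 higher and 17 lower, 6 higher and 15 lower, and 8 higher and 4 lower. Over all genes the block gave 4298 higher and 6418 lower of 16351, 4806 and 5344 of 17074, and 2703 and 3961 of 16215. The 4 lower calls in PC3 against DU145 compare with 8 without the block, and the 3961 over all genes with 4584. Depth limits STARD4, with 0 to 2 reads in PC3, and TM7SF2, with 33 to 186 reads per library.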
